A study of Mus musculus with 6 samples.

Results

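The matrix metalloproteinases (Mmps) and their tissue inhibitors (Timps) were followed here across the culture media of mouse dental epithelial organoids (DEOs). The genes were taken by symbol: Mmp2, Mmp3, Mmp9, Mmp10, Mmp13, Mmp14, Mmp20, Timp1, Timp2 and Timp3, which are 10 of the 47360 gene symbols in the expression table. They comprise 7 Mmp genes and 3 Timp genes, and each had a single entry. The DEOs were grown in Matrigel for 14 days from adult dental epithelial stem cells of the apical incisor buds of wild-type, 9-week-old female C57BL/6J mice. Every medium held conditioned media with Wnt3a (50%) and R-spondin1 (5%), EGF (100 µg/ml) and Noggin (200 µg/ml), and this shared medium alone is called +N. The +NF medium also held FGF10 (100 µg/ml), a growth factor of the dental mesenchyme. The +ND medium also held dibenzazepine (DBZ, 10 µM), a gamma-secretase inhibitor that blocks Notch signaling, and +NFD held both FGF10 and DBZ. The labels list 6 media, of which the 2 with Jagged1 were not analysed here, and each of the 4 analysed was represented by 1 RNA-seq library. Doses are printed as the labels give them. For DBZ the methods of the study give mM in place of µM, and which is right was not settled here. The labels do not say how many mice went into a library. There is no measure of the spread between cultures, so no difference below has a replicate check and none carries a p-value.

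Mmps are zinc-dependent proteases of the extracellular matrix that are made as inactive proenzymes and become active once the propeptide is removed. Timps bind the active site of mature Mmps and block it, so the balance of both families sets how much matrix is cleaved. In the tooth, secretory ameloblasts release Mmp20 (enamelysin), which trims amelogenin, ameloblastin and enamelin as enamel forms. Mmp3 and Mmp10 are the stromelysins, Mmp13 is a collagenase, Mmp2 and Mmp9 are the gelatinases, and Mmp14 is a membrane-bound protease that activates pro-Mmp2.

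Mmp3, Mmp10, Mmp13 and Mmp20 lie in 1 cluster of Mmp genes on mouse chromosome 9, and the first 3 of them shared 1 order of levels over the media. Their upstream sequence is therefore shown beside that of Mmp20, whose level followed another order. Each run is the 150 bases before the gene start on the + strand in RefSeq's annotation of GRCm38.p6, read 5′ to 3′. The positions are chr9:7445672-7445821 for Mmp3, chr9:7502192-7502341 for Mmp10, chr9:7272364-7272513 for Mmp13 and chr9:7628081-7628230 for Mmp20. Capitals mark the AP-1 motif TGACTCA, written TGAGTCA when it lies on the other strand, and the TATA box letters TATAAA.
Mmp3: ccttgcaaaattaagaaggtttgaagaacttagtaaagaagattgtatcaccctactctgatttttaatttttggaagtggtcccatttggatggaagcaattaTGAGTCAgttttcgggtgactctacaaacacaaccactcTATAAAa
Mmp10: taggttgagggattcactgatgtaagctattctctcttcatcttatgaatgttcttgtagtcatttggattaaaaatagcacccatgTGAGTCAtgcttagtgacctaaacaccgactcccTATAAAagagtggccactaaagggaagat
Mmp13: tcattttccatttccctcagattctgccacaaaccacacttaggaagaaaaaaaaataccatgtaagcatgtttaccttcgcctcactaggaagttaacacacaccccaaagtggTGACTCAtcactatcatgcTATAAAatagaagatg
Mmp20: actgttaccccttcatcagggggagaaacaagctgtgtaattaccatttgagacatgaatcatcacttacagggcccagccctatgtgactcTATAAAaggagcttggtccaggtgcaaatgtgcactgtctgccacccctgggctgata

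The AP-1 letters start 46 bases before the gene start in Mmp3, 63 bases before it in Mmp10 and 35 bases before it in Mmp13. Each of these 3 genes and Mmp20 also holds TATAAA, at 7, 29, 16 and 58 bases before the start in Mmp3, Mmp10, Mmp13 and Mmp20. Both motifs were searched on both strands, from 250 bases before to 50 after the start, in the 8 members with a RefSeq promoter (Mmp2 and Mmp9 were not matched) and in all 32851 promoters. TGACTCA was found in 3 of the 8 members and in 5.2% of all promoters, and TATAAA in 4 of the 8 and in 13.6%. All members with either motif lie in the chromosome 9 cluster, so they may not count as independent promoters. The motifs were also chosen with earlier results of these data known, so these shares are no test. Of the other motifs searched in the same way, the Ets letters AGGAAG were found in Mmp3, Mmp13, Mmp14, Timp1 and Timp3 (35.4% of all promoters) and the Runx letters ACCACA in Mmp13 and Mmp14 (16.8%). The Rbpj letters GTGGGAA were found in 0 of the 8 members and in 6.38% of all promoters, which says only that these letters are not in these windows.

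The levels are the deposited FPKM values, fragments per kilobase of transcript scaled to the mapped fragments of the library, and can be compared between genes. From the smallest steps in the values, the +ND library was the shallowest, at 0.798 times the depth of +N, while +NF and +NFD were at 1.05 and 1.06 times. The number of genes above 0 ran from 19606 in +ND to 20450 in +NFD. A ratio between libraries is given as log2((FPKM + 1)/(FPKM + 1)), which understates the difference of low genes, and a gene was called at a ratio of 2-fold if it reached 1 FPKM in the higher library. All counts of called genes are on this scale, while values given as times or fold are plain ratios of FPKM. Of all genes that could be called, 5.88% were called higher and 5.29% lower in +ND over +N. The shares were 2.76% and 2.44% in +NF over +N and 5.85% and 4.03% in +NFD over +N. In +NFD they were 3.39% and 3.11% over +ND and 3.72% and 2.69% over +NF. Each count of called list genes below is to be read beside these shares. Intervals are 95% counting intervals (exact Poisson for a level, exact binomial for a ratio) on the fragments that the steps and the longest transcript imply. They cover counting error only, and for Mmp2, Mmp9, Mmp14 and the 3 Timps, which have several transcripts, shorter ones would make them wider. All 8 epithelial markers (Epcam, Cdh1, Krt5, Krt14, Trp63, Krt17, Dsp and Itgb4) were at 54.8 FPKM or more in every library, so the labelled epithelium was read in all 4, but macrophage and fibroblast genes were also read and are given below beside the members they touch. In such bulk RNA, fewer cells of a type and less RNA per cell cannot be told apart.

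**Figure D1:**
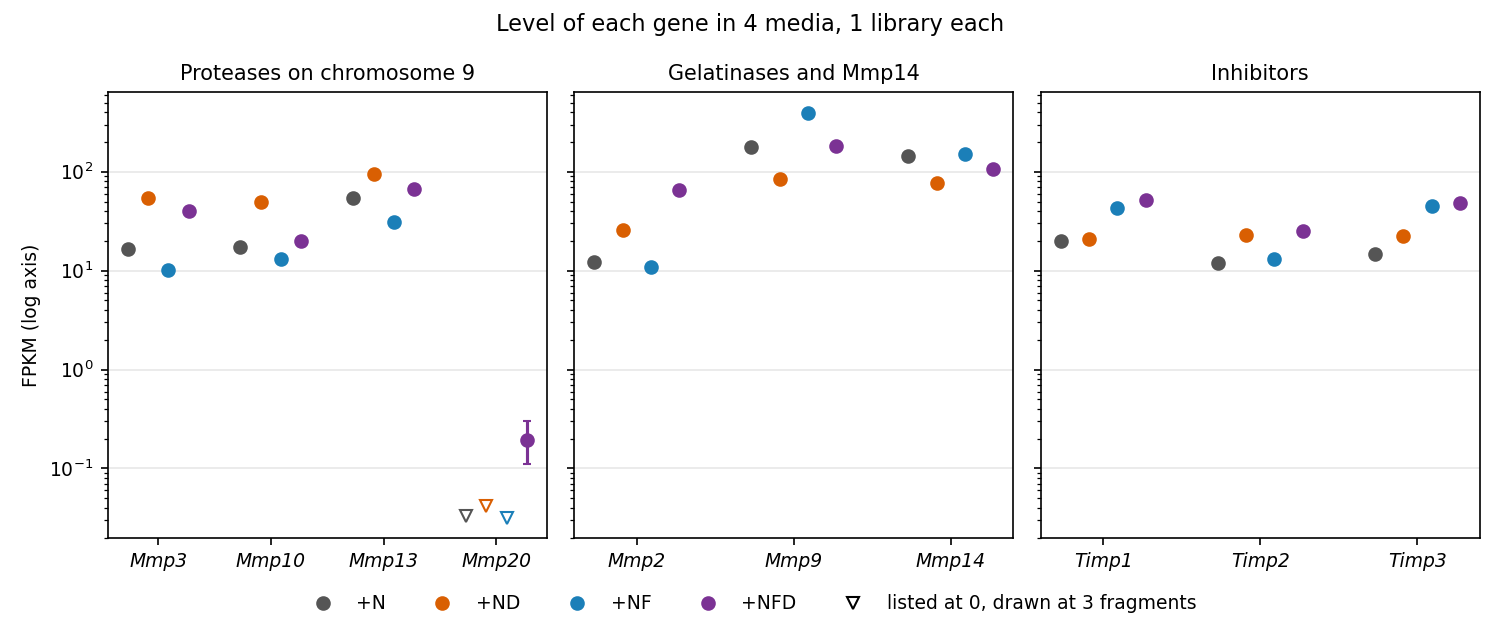
FPKM on a log axis for the 10 genes in the +N, +ND, +NF and +NFD media, 1 library each, with 95% counting intervals, most of them narrower than the points. Mmp3, Mmp10 and Mmp13 are highest in +ND and lowest in +NF, Mmp9 runs from 84.0 in +ND to 395 in +NF, and Mmp20 is above 0 only in +NFD, at 0.194.

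Among the 4 media, Mmp3, Mmp10 and Mmp13 were highest in +ND and lowest in +NF. Mmp3 (stromelysin, chr9:7445822-7455972 in GRCm38) was at 10.2 FPKM in +NF, 16.7 in +N, 40.0 in +NFD and 54.7 in +ND. Its level in +ND was 3.28 times that in +N (3.03 to 3.56), and its level in +NFD was 3.94 times that in +NF (3.58 to 4.34). Both libraries with DBZ were thus above both libraries without it. Mmp10, the other stromelysin (chr9:7502352-7510238), was at 13.1 FPKM in +NF, 17.2 in +N, 19.9 in +NFD and 49.1 in +ND. It was 2.85 times higher in +ND than in +N (2.63 to 3.10) but only 1.52 times higher in +NFD than in +NF (1.37 to 1.68). In +NFD it therefore stood close to +N, unlike Mmp3. Mmp13, a collagenase of fibrillar collagen (chr9:7272514-7283333), was at 30.9 FPKM in +NF, 54.3 in +N, 66.6 in +NFD and 95.2 in +ND. It was the most abundant of the 3 in every library and the most abundant Mmp of all in +ND. The ratio of Mmp3 to Mmp10 was 0.969, 1.11 and 0.775 in +N, +ND and +NF and 2.01 in +NFD. In the annotation, 8.39% of the 50-base windows of the Mmp3 transcript and 8.37% of those of Mmp10 are shared, mostly between these genes, so a small part of their reads may have been split between them.

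The whole cluster holds 10 Mmp genes within 427.1 kb, from Mmp13 to Mmp7. Mmp1b and Mmp1a, which flank Mmp3, had the same order in the media as their neighbours at far lower levels. Mmp1b was at 0.473 FPKM in +NF, 0.605 in +N, 0.815 in +NFD and 5.00 in +ND, which is 8.26 times higher in +ND than in +N. Mmp1a was at 0.0304, 0.0636, 0.105 and 0.935 FPKM in +NF, +N, +NFD and +ND, or about 1.76, 3.52, 6.14 and 41.3 fragments, so only the +ND value stands well above the counting floor of 3 fragments. These 2 genes share sequence (19.7% of the windows of Mmp1b also occur in Mmp1a or Mmp12), and their levels are uncertain to that extent. Mmp12 (macrophage elastase), which lies between Mmp13 and Mmp1b and overlaps the latter on the opposite strand, did not follow them: it was at 28.5 FPKM in +ND, 28.6 in +NF, 30.2 in +N and 48.0 in +NFD. The 10 macrophage markers summed to 659, 513, 480 and 400 FPKM in +N, +ND, +NF and +NFD, with none at 0, and Lyz2 made up most of each sum. Of the 9 that could be called in +NFD against +NF, 7 were above 0 on the log2 scale, 2 were below and none was called. Against +N, 4 were above 0 and 5 below, with Aif1 called lower. Against +ND, 5 were above 0 and 5 below, with none called. Of all genes, 57.25% were above 0 in +NFD against +NF, 69.06% against +N and 59.01% against +ND. Cd68 was at 32.9 FPKM in +NFD and 16.2 in +NF, just over 2-fold as a plain ratio. Its highest level, however, was 36.2 in +ND, where Mmp12 was lowest. Mrc1 was highest in +NFD at 4.85, but nearly as high in +ND at 4.71. The 2 markers below 0 in +NFD against +NF were Aif1, which fell from 42.7 to 22.4 FPKM, and Lyz2, which fell from 373 to 288. The part of macrophages in the Mmp12 level was not tested. Mmp8 was at 0.313 FPKM in +N and at most 0.0786 in the other libraries, Mmp27 stayed at or under 0.0538, and Mmp7 was listed at 0 in all 4 libraries.

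**Figure D2:**
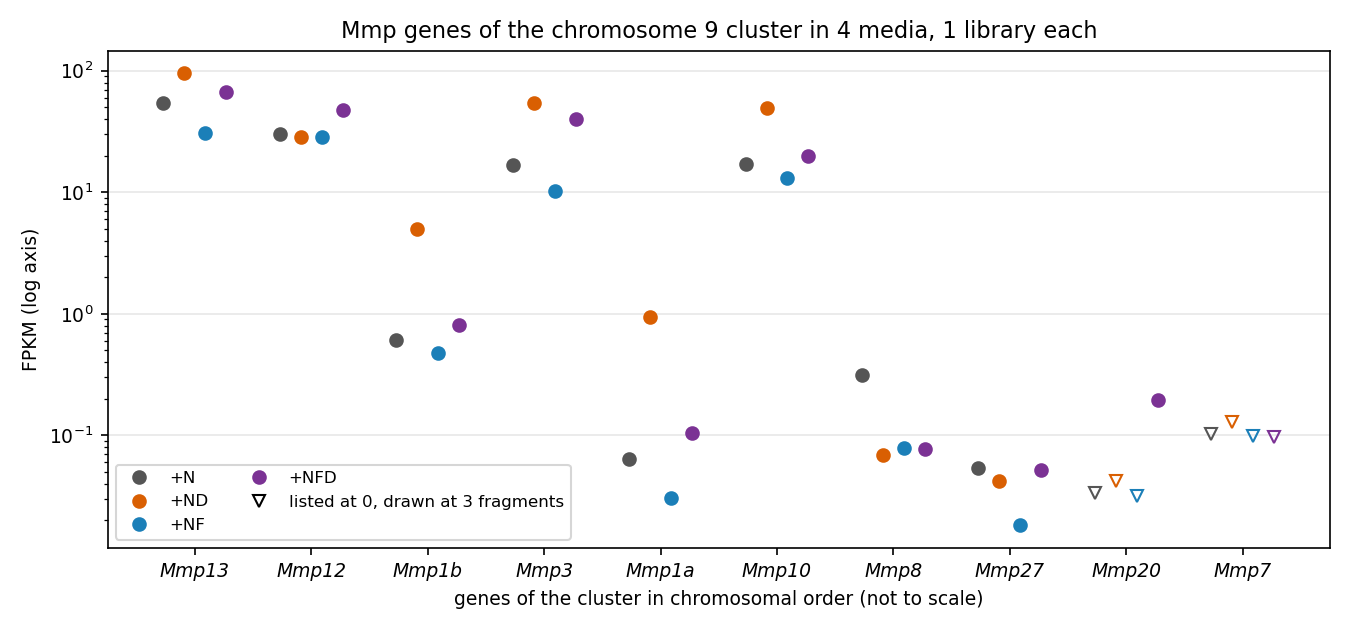
FPKM on a log axis for the 10 Mmp genes of the chromosome 9 cluster in their chromosomal order, in 4 media with 1 library each. Mmp13, Mmp1b, Mmp3, Mmp1a and Mmp10 are each highest in +ND (orange), Mmp12 is highest in +NFD, and Mmp20 is read only in +NFD.

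Mmp20 had the lowest level of the 10 genes. It (chr9:7628231-7674968, 1 annotated transcript of 3287 nt) was listed at 0 in +N, +ND and +NF and at 0.194 FPKM in +NFD (0.112 to 0.299), about 18.4 fragments. The floor of 3 fragments would be 0.0319 FPKM in +NF, 0.0333 in +N and 0.0418 in +ND. Against these floors, its value in +NFD was 5.81-fold higher than in +N, 4.64-fold higher than in +ND and 6.07-fold higher than in +NF. Counted from the lower end of its interval, it was at least 3.37-fold, 2.68-fold and 3.52-fold higher, with the floor taken per library. It did not reach the 1 FPKM needed for a call in any comparison. In +NFD, the next lowest of the 10 genes was Mmp10 at 19.9 FPKM, and the abundant Mmp9 stood at 182. An antisense gene that overlaps its end, AV064505, was listed at 0 in every library. None of the 50-base windows of Mmp20 occur in another gene.

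The RNAs of the enamel proteins that Mmp20 cleaves were also read mainly in +NFD. Amelx (amelogenin) was at 0.269, 0.272, 0.120 and 323 FPKM in +N, +ND, +NF and +NFD. Ambn (ameloblastin) was at 0.340, 0.139, 0.117 and 26.4 FPKM, and Enam (enamelin) was listed at 0 in the first 3 media and at 1.97 in +NFD. These 4 genes were thus highest in the same library, with Mmp20 at the lowest level of them. Klk4, the protease that follows Mmp20 as enamel matures, was at or under the floor of 3 fragments in every library. Among the other genes of enamel secretion and maturation, Odam was at 6221, 2824, 5441 and 2602 FPKM, and Wdr72 at 3.86, 0.0630, 2.36 and 0.690, so both were lower with DBZ. Of the 12 genes of this list in the table (of 14 named), 3 of the 8 that could be called were at least 2-fold higher in +NFD than in +N and 4 were lower. In +ND against +N, 0 of 5 were higher and 5 were lower, in +NF against +N 0 and 1, in +NFD against +ND 4 and 0 of 7, and in +NFD against +NF 3 and 1 of 8.

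In all, 749 genes were listed at 0 in +N, +ND and +NF and above 0 in +NFD, of which 281 are protein-coding. The 5 of all 749 with the highest FPKM were short noncoding RNAs (Gm27762, Mir6363, Mir6340, Gm26447 and Gm25767), at 320 to 46.9 FPKM with lengths of 109 to 129 nt. Mmp20 was the 10th by FPKM and the 8th by fragments among the protein-coding ones, and 15 of these exceeded 10 fragments. Those with more fragments include Enam at 313, Susd5 at 32.7 and Clgn at 32.5. By the distance between profiles of log2(FPKM + 1), each centred on its mean over the 4 libraries, the genes most like Mmp20 among 13748 were 2310039H08Rik, Ndufb4, Ino80e, Mllt10 and Gm11946. Each of these was read in all 4 libraries, with Ndufb4 at 51.0, 50.9, 50.8 and 61.4 FPKM, because the pseudocount leaves Mmp20 with a range of only 0.26 on the log2 scale.

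On the scale of log2(FPKM + 1), Mmp2 had the widest range of the 10 genes. Mmp2 (gelatinase of denatured and basement membrane collagen, chr8:92827328-92853417) was at 10.9 FPKM in +NF, 12.3 in +N, 25.8 in +ND and 65.9 in +NFD. Its level in +NFD was 5.34 times that in +N (5.00 to 5.71), 2.55 times that in +ND (2.42 to 2.69) and 6.07 times that in +NF (5.66 to 6.50). In +ND it was 2.09 times higher than in +N (1.94 to 2.26), and +N and +NF differed by 0.17 on the log2 scale. The 5 genes with the most similar profile over the 4 libraries, among 13747, were Serpina3g, Nts, Cdh11, Bgn and Twist2, at distances of 0.24 to 0.33. Bgn (biglycan) was at 26.9, 58.4, 21.5 and 113.9 FPKM in +N, +ND, +NF and +NFD. Cdh11 is a cadherin of mesenchymal cells, and Twist2, at 0.744, 2.79, 0.679 and 6.17 FPKM, belongs to the list of fibroblast markers.

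Fibroblast markers moved with Mmp2 in +NFD. The 14 markers summed to 173.4 FPKM in +NF, 255.5 in +ND, 273.9 in +N and 667.6 in +NFD, with none at 0 in any library. Of the 13 that could be called, 11 were at least 2-fold higher in +NFD than in +N, against 5.85% of all genes. Against +ND, 9 were higher (3.39% of all genes), and against +NF 10 were higher (3.72%). No marker was lower in these comparisons. Thy1 was at 0.0769 FPKM in +N and 11.1 in +NFD, and Vim (vimentin) at 16.3 and 67.5. In +ND, where Mmp2 was also above +N, only Twist2 of 11 was called higher. As plain ratios, Thy1 (0.0769 to 1.04 FPKM), Pdgfra (0.675 to 1.70) and Pdgfrb (1.30 to 2.79) were also more than 2-fold higher there. Fap (0.323 to 0.0951 FPKM) was more than 2-fold lower, and Col3a1 went from 20.8 to 12.3. Of the 11, 6 were above 0 on the log2 scale and 5 below, with 58.25% of all genes above 0. In +NF, 0 of 10 were called higher and Col3a1 and Lum were lower, while as plain ratios Pdgfra (1.53 FPKM) and Thy1 (0.325 FPKM) were also more than 2-fold above +N. The part of these cells in the Mmp2 level was not tested. Markers of odontoblasts and dental mesenchyme summed to 46.2, 79.1, 44.5 and 113 FPKM, with Prrx1 at 2.08, 8.46, 2.23 and 15.6 FPKM, and Ibsp at 37.7, 60.5, 34.4 and 68.6. Dmp1, which is made by odontoblasts and bone cells, was at 6.37, 9.27, 7.56 and 28.0 FPKM, and was at least 2-fold higher in +NFD than in +N and than in +NF and +ND. Dspp, which defines odontoblasts, was at or under the floor of 3 fragments in every library. The part of these cells was likewise not tested. Of the 3 of these 6 markers that could be called, 1 was higher in +ND than in +N, 0 in +NF than in +N, 2 in +NFD than in +N, 1 than in +ND and 2 than in +NF.

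Mmp9 and Mmp14 were lowest in +ND. Mmp9, the other gelatinase (chr2:164940780-164955850), was at 84.0 FPKM in +ND, 176 in +N, 182 in +NFD and 395 in +NF. It was 2.1-fold lower in +ND than in +N (2.04 to 2.16), 2.24 times higher in +NF than in +N (2.20 to 2.29) and within 1.04 times of +N in +NFD (1.01 to 1.06). The library with both factors thus lay between those with 1 of them. Mmp14 (chr14:54431612-54441265) was at 76.3 FPKM in +ND, 107 in +NFD, 145 in +N and 152 in +NF. It was 1.91-fold lower in +ND than in +N (1.85 to 1.97), which did not reach the 2-fold call, and the +NF library was within 1.05 times of +N (1.02 to 1.07). Both libraries with DBZ were below both without it.

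Mmp9 is also made by osteoclasts, macrophages and neutrophils. Of their markers, Acp5 (osteoclasts and macrophages) was at 37.9, 17.6, 19.7 and 11.9 FPKM in +N, +ND, +NF and +NFD, highest in +N. Of the 4 osteoclast markers, which summed to 40.2, 20.5, 22.0 and 17.6 FPKM, Ocstamp was at 0 in every library and Calcr in all but +ND, where it was at 0.0242. Ctsk was at least 2-fold higher in +NFD than in +N and than in +NF, and Acp5 was lower in +ND and in +NFD than in +N. The neutrophil markers Elane and Mpo were at 0 in every library, and the 4 neutrophil markers summed to 0.638 FPKM or less. The 10 macrophage markers, with Lyz2 at 528, 408, 373 and 288 FPKM, had 1 gene called against +N, Aif1, which was lower in +ND and in +NFD. None was called in the other 3 comparisons, although as plain ratios Fcgr1 was 2.23-fold lower in +NF than in +N and Aif1 2.05 times higher in +NFD than in +ND. The 5 endothelial markers summed to 0.326 FPKM or less in every library. The part of osteoclasts and macrophages in the Mmp9 level was not tested.

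The 3 Timps were lowest in +N and highest in +NFD. Timp1, a secreted inhibitor that also binds pro-Mmp9 (chrX:20870166-20874735), was at 19.8 FPKM (+N), 20.8 (+ND), 43.1 (+NF) and 52.2 (+NFD). Both libraries with FGF10 were above both without it, by 2.17 times in +NF over +N (1.95 to 2.42) and 2.51 times in +NFD over +ND (2.25 to 2.82). The ratio of +ND to +N was 1.05 (0.915 to 1.20), which counting error alone does not tell from 1. Timp3, which is bound to the matrix (chr10:86300372-86349506), was at 14.7 FPKM (+N), 22.2 (+ND), 44.7 (+NF) and 48.8 (+NFD). It was 3.03 times higher in +NF than in +N (2.88 to 3.19) and 2.19 times higher in +NFD than in +ND (2.09 to 2.30), so it also separated the libraries with FGF10 from those without. Timp2, which links pro-Mmp2 to Mmp14 at the cell surface (chr11:118301069-118355740, - strand), was at 12.0 FPKM in +N, 13.2 in +NF, 23.2 in +ND and 25.3 in +NFD. It separated the libraries by DBZ instead, at 1.93 times in +ND over +N (1.80 to 2.08) and 1.92 times in +NFD over +NF (1.80 to 2.05). In +NF it was 1.10 times +N (1.02 to 1.19), a small difference beside that for DBZ.

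Genes that overlap the Timps could share reads with them, since the strand of the reads is not given in the sources used here. Timp1 lies within Syn1 on the opposite strand, which was at 0.390 to 1.03 FPKM. Timp3 lies within Syn3 on the opposite strand, which was at 0.162 to 0.780 FPKM and highest in +NFD, and 36.3% of the windows of Timp3 also occur in other genes, mostly Syn3, Vcam1 and 9530046B11Rik. Vcam1 was at 0.144 to 1.31 FPKM, also highest in +NFD, and 9530046B11Rik at 0.0703 FPKM or less. Timp2 overlaps Cep295nl, at 0.151 FPKM or less. These values were below those of the Timps, but how shared reads were divided was not tested.

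With DBZ alone, 3 of the 9 members that could be called were at least 2-fold higher than in +N (Mmp2, Mmp3 and Mmp10), against 5.88% of all 13173 genes called higher. Mmp9 was the 1 member lower, against 5.29% of all genes. The median ratio of the 9 members was 0.80 on the log2 scale and that of all genes 0.10. Mmp20 could not be called in any of the 5 comparisons, and 9 of the 10 members passed in each of them, all of them at 10.2 FPKM or more in every library.

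With FGF10 alone, the members higher than in +N were Mmp9, Timp1 and Timp3, or 3 of 9, against 2.76% of all 13090 genes, and 0 were lower against 2.44%. The median of the members was 0.07 and that of all genes 0.12 on the log2 scale. Mmp3 and Mmp13 were lower by 0.66 and 0.79 on this scale, short of a call.

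With both factors, Mmp2, Mmp3 and the 3 Timps were at least 2-fold higher than in +N, or 5 of 9 members, against 5.85% of all 13358 genes. No member was lower, against 4.03% of all genes. The median of the members was 1.02 and that of all genes 0.18. These 3 comparisons share the +N library, so they are not independent of each other.

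Set against +ND, the +NFD library was at least 2-fold higher for Mmp2, Mmp9, Timp1 and Timp3 (4 of 9, with 3.39% of all 13293 genes called higher) and lower for Mmp10 (3.11% called lower). The members' median was 0.49 and that of all genes 0.09. Set against +NF, it was higher for Mmp2, Mmp3 and Mmp13 (3 of 9, with 3.72% of all 13349 genes) and lower for Mmp9 (2.69%). The medians were 0.56 for the members and 0.05 for all genes. With each library scaled to its upper quartile or the ratios centred on the median of all genes, Mmp2 left the calls of +ND over +N and Mmp14 joined them as lower, Timp1 left those of +NF over +N, and Timp2 left those of +NFD over +N. With centring, the shares of all genes called higher and lower became 4.67% and 6.39% in +ND over +N, 1.89% and 3.15% in +NF over +N, 4.04% and 5.35% in +NFD over +N, and 2.60% and 3.81% in +NFD over +ND.

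**Figure D3:**
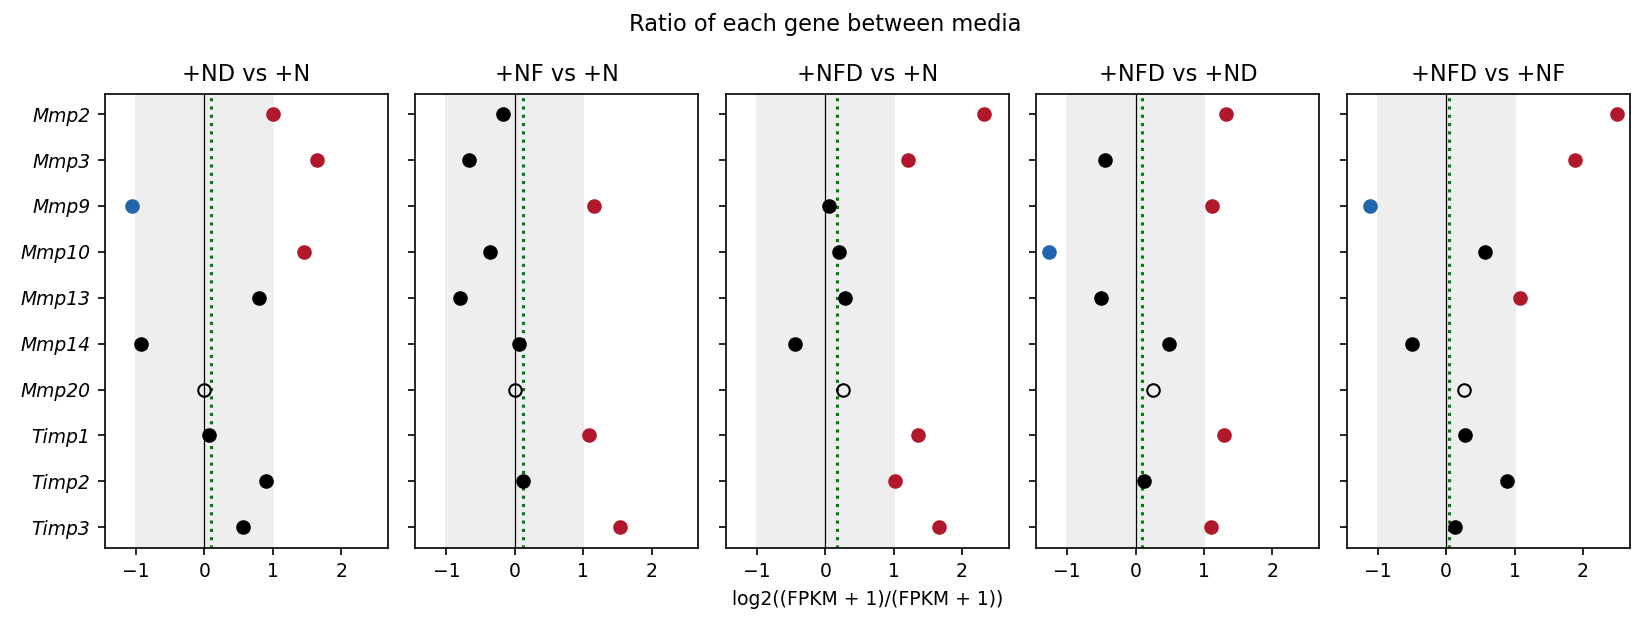
Log2 ratio of FPKM + 1 for each gene (rows) in 5 comparisons (panels), each between 2 single libraries, with the grey band marking less than 2-fold, red points called higher, blue points called lower, an open point for Mmp20, which could not be called, and a dotted green line at the median of all genes. Mmp2 reaches 2.33 in +NFD over +N, and Mmp9 is at -1.06 in +ND over +N and at 1.16 in +NF over +N.

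The ratio for FGF10 was compared without DBZ (+NF over +N) and with it (+NFD over +ND), which share no library. Mmp9, Mmp14 and the 3 Timps were higher with FGF10 in both backgrounds and Mmp3, Mmp10 and Mmp13 lower in both, although Mmp14 without DBZ (0.07) fell to -0.05 when the ratios were centred. Mmp2 was on opposite sides of 0, at -0.17 without DBZ and 1.32 with it. This difference of 1.49 was the only one among the 9 members of at least 1, and 8.06% of all 13748 genes differed by that much in either direction. Were the 2 single ratios simply multiplied, Mmp2 would lie at 22.8 FPKM in +NFD, where it was at 65.9. Mmp10 would lie at 37.9 and was at 19.9, a difference of -0.90 on the log2 scale. For Mmp9 the ratios were 1.16 and 1.11, and for Timp2 they were 0.13 and 0.12, so both of these were near the product of the single ratios. The ratio for DBZ was above 0 in both backgrounds for Mmp2, Mmp3, Mmp10, Mmp13 and the 3 Timps, and below 0 in both for Mmp9 and Mmp14. Timp1 is the exception under the other scalings, since its 0.06 for +ND over +N became -0.04 when centred. With 1 library per medium none of these differences could be tested.

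**Figure D4:**
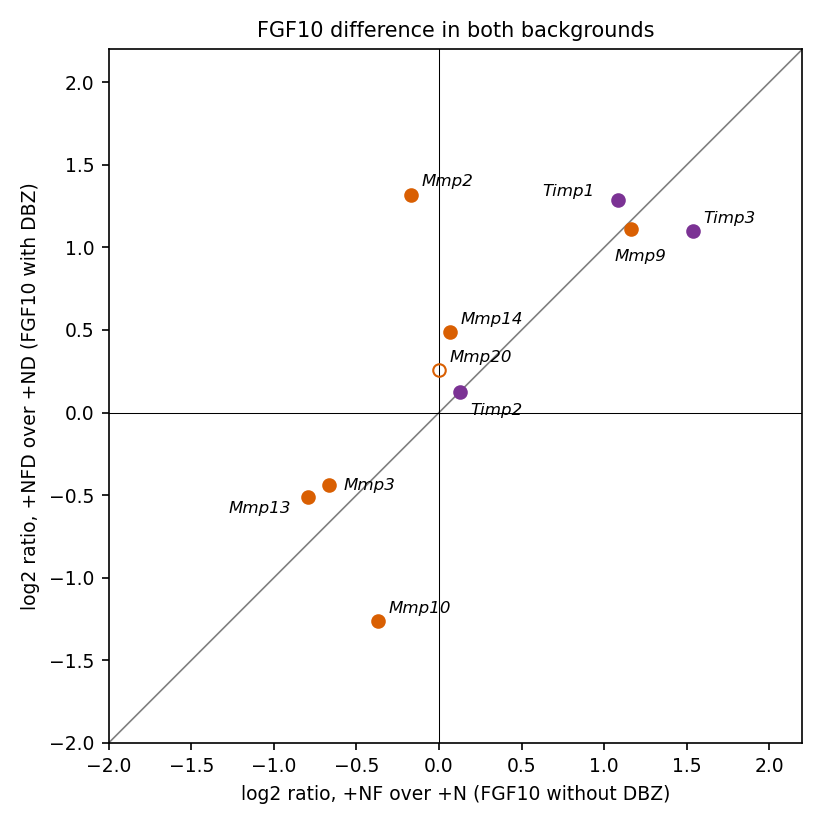
Log2 ratio for FGF10 without DBZ (horizontal axis, +NF over +N) and with DBZ (vertical axis, +NFD over +ND) for each gene, with Mmps in orange, Timps in purple, Mmp20 as an open point and the line of equal ratios in grey. Mmp2 is the farthest from the line, at -0.17 and 1.32, while Mmp9 and Timp2 lie close to it.

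Summed over the 7 Mmps, the level was 385 FPKM in +ND, 422 in +N, 482 in +NFD and 612 in +NF. The 3 Timps summed to 46.6, 66.2, 101.0 and 126.3 FPKM in +N, +ND, +NF and +NFD. The ratio of the sums was 3.82 in +NFD, 5.82 in +ND, 6.06 in +NF and 9.06 in +N, lowest in the library with both factors. Without the most abundant gene of each family in each library, it was 4.04 in +NFD, 6.74 in +ND, 3.86 in +NF and 9.19 in +N, and +NF was then the lowest. The make-up of the Mmp sum also differed: Mmp9 and Mmp14 together made up 41.6% in +ND, 60.1% in +NFD, 76.2% in +N and 89.4% in +NF. Mmp3, Mmp10 and Mmp13 made up 51.7%, 26.2%, 20.9% and 8.84% of it in that order, and Mmp2 made up 6.70%, 13.7%, 2.92% and 1.77%. Between partners, Mmp14 was 1.63 times Mmp2 in +NFD, 2.96 times in +ND, 11.8 times in +N and 14.0 times in +NF. The ratio of Mmp2 to Timp2 was 2.60, 1.11, 1.03 and 0.822 in the same order, and that of Mmp9 to Timp1 was 3.49, 4.04, 8.88 and 9.17. These are ratios of RNA levels, and neither protein nor protease activity was measured in these libraries.

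**Figure D5:**
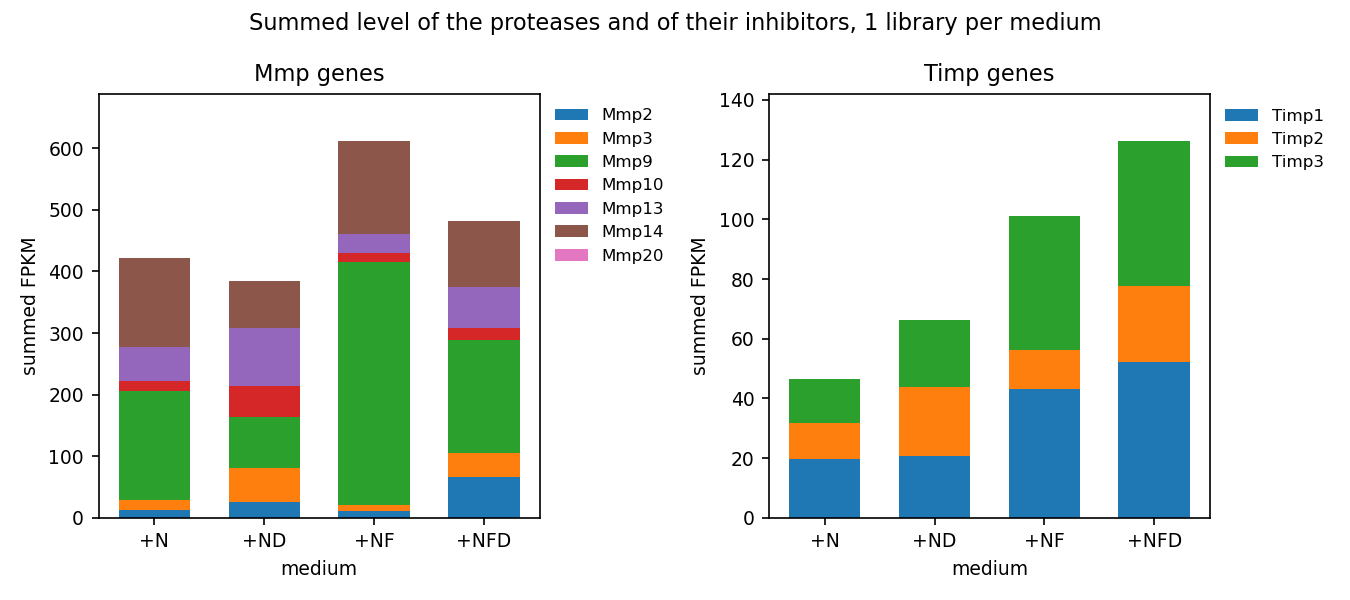
Stacked FPKM of the 7 Mmps (left) and of the 3 Timps (right) in 4 media, 1 library each, on axes that start at 0 and differ in scale. The Mmp sum is highest in +NF at 612, mostly Mmp9, and the Timp sum is highest in +NFD at 126.3.

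The rest of the family was mostly low, apart from Mmp12, given above, and Mmp28. The latter was at 33.7, 31.5, 19.7 and 31.5 FPKM in +N, +ND, +NF and +NFD. These further genes are not part of the sums above, and together they summed to 76.2, 76.2, 59.4 and 101.0 FPKM. Of the 17 further Mmp and Timp genes, which include the 6 of the chromosome 9 cluster given above, 5 to 6 were at 1 FPKM or more in each library. Mmp23 was at 1.18, 1.76, 1.21 and 5.94 FPKM in +N, +ND, +NF and +NFD, and was at least 2-fold higher in +NFD than in each other library. Mmp11 (stromelysin 3) was at 2.78, 1.57, 4.32 and 6.18 FPKM and was called higher in +NFD than in +ND. Mmp1b was called higher in +ND than in +N and lower in +NFD than in +ND, and in the remaining comparison, +NF over +N, 0 of 5 were called. Timp4, the remaining inhibitor, was listed at 0 in 3 libraries and at 0.0401 in +NFD.

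Among 20 genes listed for the activation and inhibition of Mmps, 3 of the 15 that could be called were higher and 4 lower in +ND against +N. Furin, the convertase that cleaves the propeptide of Mmp14, was at 48.4 FPKM in +ND, 76.6 in +NFD, 105 in +N and 113.8 in +NF, the same order as Mmp14. Pcsk5, a related convertase, was at 7.19, 0.0846, 7.29 and 0.377 FPKM in +N, +ND, +NF and +NFD, so it was low in both libraries with DBZ. Plat, which makes plasmin from plasminogen, was at 4.01, 13.6, 5.15 and 12.5 FPKM, high in both. Serpinb2, an inhibitor of plasminogen activators, was highest in +ND, at 130 FPKM against 43.2 in +N. Plaur and St14 were the others called lower in +ND. In +NF against +N, 0 were higher and Lcn2, which binds Mmp9, was lower. In +NFD, Pcsk6 and Plat were higher and Pcsk5 lower than in +N, Hpn was higher and Serpinb2 and Serpinb5 lower than in +ND, and Pcsk6, Plat and Lcn2 were higher and Pcsk5 lower than in +NF. Reck, a membrane-bound inhibitor of Mmps, was at 0.484, 0.716, 0.640 and 1.44 FPKM.

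Of 20 Adam and Adamts genes and related metalloproteinases, Adam12 was the 1 of 10 called in +ND against +N, as lower. It was at 6.86, 0.487, 7.51 and 0.621 FPKM in +N, +ND, +NF and +NFD, so both libraries with DBZ were far below both without it. Adamts15 was lower in +NF and in +NFD than in +N, Adam12 was also lower in +NFD than in +N and than in +NF, and Mme (neprilysin) was higher in +NFD than in each other library, at 4.19 FPKM against 0.440 in +N. Among the 9 AP-1 genes, Fosl1 was at 8.17, 20.2, 7.59 and 16.3 FPKM, at least 2-fold higher in +ND than in +N and in +NFD than in +NF, and Jun was at 46.0, 26.5, 20.2 and 22.4 FPKM, lower in +NF and in +NFD than in +N. In +NFD against +ND, 0 of 8 were called. Of the 9 Ets and Runx genes, Etv4 was at 22.8, 48.0, 64.1 and 67.6 FPKM and, like Etv5, higher in each medium than in +N. Ehf was lower in each medium than in +N, and Runx2 was lower in +ND than in +N and higher in +NFD than in +ND. In +NFD against +NF, 0 of 9 were called.

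The RNA levels of matrix proteins that Mmps cleave were compared last. Of the 23 of 25 that could be called in +NFD against +N, 9 were at least 2-fold higher and 3 lower. Those higher were Col1a1, Col1a2 and Col3a1 (fibrillar collagens that also mark fibroblasts), Col4a1 and Nid1 (basement membrane), Eln, Amelx, Ambn and Enam. Those lower included Lama3, a laminin chain, and Tnc (tenascin C), with Lama3 at 132, 66.9, 146.7 and 63.7 FPKM in +N, +ND, +NF and +NFD. In +ND against +N, Spp1 was higher and Tnc lower among 19, and in +NF against +N, Lamb1 was higher and Col3a1 lower among 19. Against +ND, 7 of 23 were higher in +NFD and 0 lower, and against +NF 9 of 23 were higher and 3 lower. The epithelial markers in the same comparisons had 0 of 8 higher and 3 lower in +ND over +N (Epcam, Cdh1 and Krt14), and Itgb4 was higher in +NF over +N. In +NFD, Itgb4 was higher and Cdh1 and Krt14 were lower than in +N, Itgb4 was higher than in +ND, and Epcam was lower than in +NF. The part of the epithelial and fibroblast shares of the cells in the Mmp and Timp levels was not tested.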

How the data were processed

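Total RNA of the organoids was made into 1 TruSeq library per medium and sequenced on an Illumina HiSeq sequencer. The submitters' processing notes name FastQC 0.11.9, Trim Galore 0.6.5, TopHat2 2.1.1 and GRCm38, and the authors deposited 1 table of Cufflinks FPKM values, with no counts. The 4 library columns were used, and 0 columns belonged to other samples. Entries with the same symbol were summed (123 symbols of 47493 entries). Ratios used a pseudocount of 1, a minimum of 1 FPKM in the higher library and a 2-fold threshold. The fragment step was estimated from 8367 genes with 1 annotated transcript of at least 1000 nt (GENCODE annotation of GRCm38), and 3 fragments were the floor. No count test was run, since FPKM are not counts and each group has 1 library. Scripts ran in Python 3.11.15 with pandas 2.3.3, scipy 1.17.1, numpy 2.4.6 and, for figures, matplotlib 3.10.9 and were tested on simulated data.

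The members, gene lists and motifs were chosen with earlier results of these data known. All members were named. Other list genes were named where they reached 1 FPKM and a 2-fold ratio in any comparison, or as markers given beside a member. Genes of the chromosome 9 cluster, Reck, Timp4, Klk4, Dspp, Susd5, Clgn and the overlapping genes were named after their values were seen. The 5 nearest profiles were given for Mmp20 and for the member with the widest range. Some list members are counted but not reported here by name. Alternatives were pseudocount 0.1 or none, no filter or 5 FPKM, upper-quartile scaling, centring, the highest entry per symbol, the shortest transcript, sums without the top member and upstream promoter bases alone.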

Additional observations from a re-analysis of the deposited data

Results flagged for a closer look

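Among 16 genes of the family, the 32 differences for FGF10 and for DBZ were compared between the background without and with the other factor, and 7, or 21.9%, had opposite signs, against 41.1% of those of all 13748 genes. In 6 of them both ratios also had a 95% counting interval that leaves out 1, and these are given here. The other was that of Mmp15 for FGF10, at -0.58 without DBZ and 0.11 with it. Each rests on single libraries, and none of these differences was tested. All values are log2 ratios of FPKM + 1. For FGF10, Mmp2 was at -0.17 without DBZ and 1.32 with it, and Mmp12 was at -0.08 without DBZ and 0.73 with it. For DBZ, Mmp12 was at -0.08 without FGF10 and 0.73 with it, since +NFD was its only raised library. Mmp11 was at -0.56 without FGF10 and 0.43 with it for DBZ. Mmp15, a membrane-type Mmp, was at -0.30 and 0.39 in the same backgrounds, with 6.27, 4.89, 3.85 and 5.37 FPKM in +N, +ND, +NF and +NFD. Mmp28 (epilysin) was at -0.09 and 0.65, with 33.7, 31.5, 19.7 and 31.5 FPKM, so only its +NF library stood apart.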

How the results depend on the processing

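The members called in the 5 comparisons, and Mmp2 as the only one with an FGF10 difference of at least 2-fold between backgrounds, were the same genes with a pseudocount of 0.1, with none, without the filter, with a filter at 5 FPKM and with the highest entry of each symbol. The shares of all genes called moved more: those higher, 2.76% to 5.88% as reported, were 5.44% to 9.51% with a pseudocount of 0.1 and 0.762% to 1.65% without the filter, and those lower, 2.44% to 5.29%, were 3.67% to 7.25% and 0.674% to 1.47%. Upper-quartile scaling and centring changed the calls named in the report, which rest on ratios close to 2-fold. Of the 45 ratios of members, 42 kept their sign under all 7 alternatives. The exceptions, under upper-quartile scaling and centring, were Mmp14 in +NF over +N (0.07 to -0.04 and -0.05), Mmp9 in +NFD over +N (0.05 to -0.10 and -0.13) and Timp1 in +ND over +N (0.06 to -0.01 and -0.04). Without the most abundant gene of each family, the Mmp sum was 246, 290, 217 and 300 FPKM in +N, +ND, +NF and +NFD, so +NF was then the lowest, and the Timp sum was 26.8, 43.0, 56.3 and 74.1. The ratio of these sums, an alternative chosen after seeing the data, is given in the report. With the shortest transcript, the fragments in +NFD fell for the 6 members with several transcripts. In proportion they fell most for Timp3 (6666 to 497) and Mmp14 (10050 to 1037), and in number most for Mmp9 (16760 to 2196). The members with each motif were the same in the upstream bases alone, although Timp1 then lost 1 of its Ets matches, and the share of all promoters was lower (4.46% for AP-1, 29.5% for Ets). No paired analysis was possible because each medium has 1 library, and for the same reason no library could be left out. Depth limits Mmp20, Mmp1a, Mmp8 and Mmp27, which rest on few fragments.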
